A study of Homo sapiens with 30 samples.

Results

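HCT116 cells without p53 were compared after 16 hours in 100 nM actinomycin D, the highest dose of the study, with untreated cells of the same line. HCT116 is an established line from a human colon adenocarcinoma, and the cells named p53KO are its isogenic form without p53, the transcription factor that answers DNA and ribosomal stress. The 6 arrays were taken by their labels, 3 of p53KO cells at 100 nM and 3 of untreated p53KO cells, from 30 arrays in 10 groups of 3, and the values come from 11526 features, 1 kept probe per gene. The p53KO cells at 10 nM and 1 nM and the wild-type (WT) cells at 0 and 100 nM, also 3 arrays a group, were used only to set these values beside. All cells were grown in McCoy medium with bovine serum, seeded overnight, treated or left untreated, and lysed in Trizol. The labels name a single knockout line and do not state that each array is its own culture. The p-values therefore reflect array-to-array spread alone, possibly technical. The probe for the p53 gene itself is not analysed here. The label was set against PROM1, a membrane glycoprotein chosen after its values were seen, which tells the 2 lines apart here but does not measure p53. Untreated WT cells had a mean PROM1 level of 8.81 (log2). PROM1 had means of 4.31 in untreated and 4.51 in treated p53KO cells and was detected on none of those 6 arrays.

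Actinomycin D lies between the bases of DNA, mostly at GC steps, and stalls RNA polymerases. Ribosomal RNA genes, read by RNA polymerase I, are the most sensitive, and higher doses stop RNA polymerase II as well, which makes messenger RNA. As background, once transcription is stopped the level of a messenger RNA depends on its own rate of decay, and short genes with few introns are read to their end sooner than long ones. In cells with p53 the drug is known for raising p53 targets through ribosomal stress, a branch that the p53KO cells lack.

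Probes of middle signal were dimmer and fewer were detected at this dose. The raw 75th percentile of probe intensity was 117.72, 106.86 and 100.73 units on the 100 nM arrays and 211.53, 199.22 and 253.18 on the untreated arrays, a ratio of 0.49. The number of probes detected (detection p under 0.01) was 10390, 10101 and 10222 against 12153, 12372 and 12120, a ratio of 0.838. The groups did not overlap in either measure, and a two-sided exact permutation test gave p = 0.1 for each, the smallest that 3 arrays against 3 allow. The brightest probes did not share this: the raw 99th percentile had a ratio of 1.05 (exact permutation p = 0.7). The summed raw signal had a ratio of 0.816 (exact permutation p = 0.2), and the groups overlapped in it, with 6061.1, 6360.8 and 7149.9 on the 100 nM arrays (in 1000 intensity units) and 7065.7, 8046.2 and 8880.1 on the untreated ones. The second array at 1 nM was also dim, with a 75th percentile of 133.1 and a sum of 5046.5, below that of each 100 nM array. The same 2 measures on the 10 nM arrays, 254.83 to 305.56 units and 12289 to 12342 probes, lay above the range of the untreated arrays in intensity and within it in probes. Every change below is relative to the array, because quantile normalisation gave all arrays the same distribution, and in such bulk RNA fewer cells and less RNA per cell cannot be told apart.

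**Figure D1:**
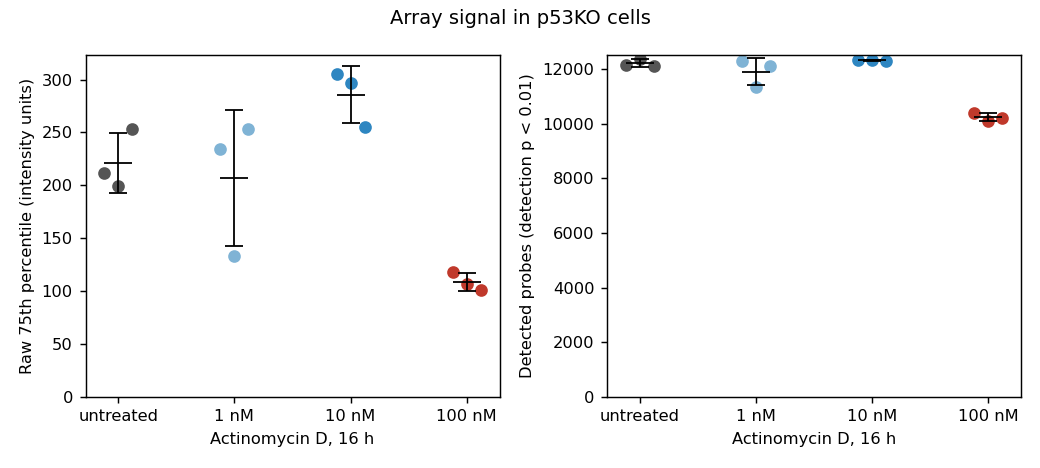
Raw 75th percentile of probe intensity (left, intensity units) and number of detected probes (right) on each array of p53KO cells, with 1 point per array and the mean ± SD (n = 3) in black. The 3 arrays at 100 nM lie below all untreated arrays in both measures, with a mean of 108.44 units against 221.31.

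The 100 nM arrays all lay on slide 1, the first untreated array on slide 2 and the other 2 on slide 4. No slide held both groups, so in this comparison slide could enter only as a random block. The p53KO arrays at 10 nM all lay on slide 5 and those at 1 nM on slide 3. Dose and slide therefore cannot be told apart within p53KO cells. The first untreated array differed from the other 2 in immediate early genes, and values without it are given where they matter. The arrays of nutlin, a p53-activating drug of the same study, enter here only through the shared spread, and the third nutlin array of each genotype went against its genotype label. Without these 2 and the first untreated arrays of both genotypes, 7982 features were called.

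At an adjusted p under 0.05 (limma's moderated test, Benjamini-Hochberg over 11526 features), 7617 features changed, 66.1% of those tested. Of these, 3898 rose (33.8%) and 3719 fell (32.3%). A change of at least 2-fold was called upward in 1531 (13.3%) and downward in 2114 (18.3%). The 3 arrays of the 2 groups did not overlap in 7791 features (67.6%). The split into higher and lower is set by the scaling: with each array's 75th percentile set equal, 6140 rose and 2469 fell (median of all features 0.56), and with no scaling 539 rose and 6376 fell (median -0.69), against a median of 0.03 here. These 2 alternatives differ by the same amount for every feature, so a sign kept under both is not 2 separate checks. With slide as a random block, 3228 rose and 3135 fell. Changes are given as log2 differences of group means ± SE (limma's moderated standard error, n = 3 a group), and levels as log2 intensity.

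**Figure D2:**
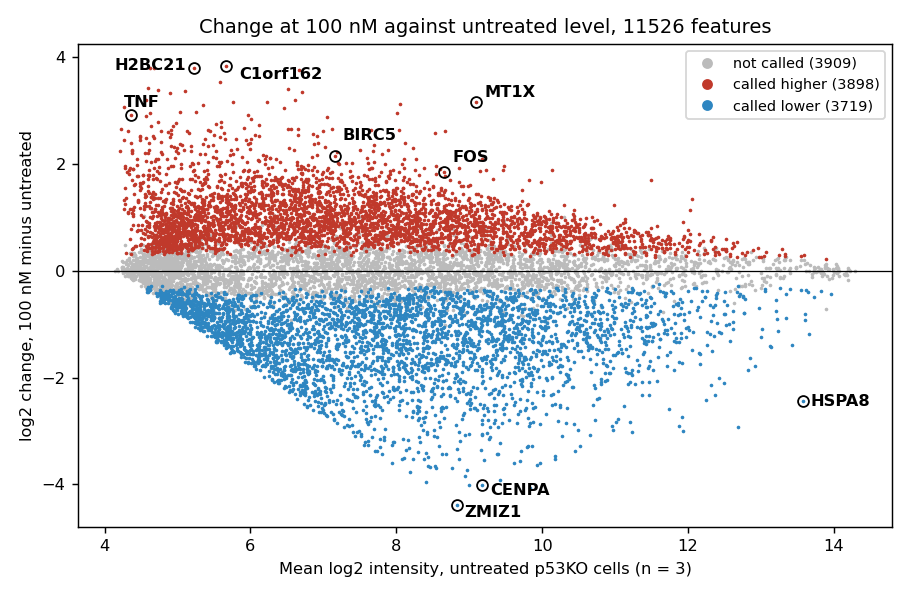
Log2 change at 100 nM (vertical) against the mean log2 intensity of untreated p53KO cells (horizontal, n = 3) for all 11526 features, with called features in red (3898 higher) and blue (3719 lower) and the others in grey (3909). The lower edge slopes toward levels near background, and HSPA8 fell by 2.44 from a level near the top of the array.

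Of the 12 called genes with the lowest fitted change and no overlap, 8 were detected on no 100 nM array. Their falls are given as bounds and have no order among them. ZMIZ1, a coactivator of nuclear receptors and SMADs, had log2 levels of 9.05, 8.80 and 8.66 on the untreated and 4.65, 4.31 and 4.40 on the 100 nM arrays. It was detected on all untreated and on no 100 nM arrays, and fell at least 11.3-fold (adjusted p = 6.1e-15). Such a bound sets the mean of the bright group against the lowest signal of any detected probe. HS3ST1, an enzyme that sulfates heparan sulfate, had levels of 9.26, 10.09 and 10.13 on the untreated and 5.58, 5.77 and 5.95 on the 100 nM arrays, a fall of 4.06 ± 0.20 with the probe still detected on every array. CENPA, the histone H3 variant that marks centromeres, had levels of 9.01, 9.24 and 9.26 on the untreated and 5.02, 5.27 and 5.20 on the 100 nM arrays, at least 14.2-fold lower. The groups lay far apart in each of the 3.

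Enzymes and scaffold proteins made up much of the rest of these 12. FUT8, which adds core fucose to glycoproteins, fell at least 8.39-fold, and LRRC1, a scaffold of cell polarity, at least 12.6-fold, though its other probe gave -1.38. ARHGAP12, a GTPase-activating protein, fell by 3.92 ± 0.19, and TACC2, a centrosomal protein, at least 12.1-fold. KIF2A, a kinesin that depolymerises microtubules, fell at least 7.16-fold, and KIF11, the kinesin that pushes spindle poles apart, fell by 3.70 ± 0.42 with levels of 8.43, 8.87 and 8.98 on the untreated and 5.53, 4.66 and 4.98 on the 100 nM arrays. Regulators of chromatin and transcription closed the group. CHD1, a remodeller bound to active genes, fell by 3.72 ± 0.27, with treated arrays at 6.11, 4.71 and 4.91. JMJD1C, a JmjC-domain protein, fell at least 9.17-fold, and TAF4, a subunit of the TFIID complex, at least 8.69-fold. The median RefSeq span of these 12 genes was 107.3 kb, against 28.2 kb for all features with a span.

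Of the 12 called genes with the highest fitted change and no overlap, 2 were detected on no untreated array and are given as bounds. C1orf162, a predicted membrane protein, had levels of 6.83, 5.13 and 5.04 on the untreated and 9.34, 9.43 and 9.73 on the 100 nM arrays, so its first untreated array was higher than the other 2 and the change was 3.84 ± 0.30 with it and 4.42 without it. REM2, a small GTPase that inhibits calcium channels, rose by 3.82 ± 0.19 (adjusted p = 2.3e-14), with levels of 5.19, 4.96 and 4.96 on the untreated and 8.81, 8.79 and 8.99 on the 100 nM arrays. GPR3, an orphan receptor that raises cyclic AMP, rose by 3.76 ± 0.24. CDKN2B, the p15 inhibitor of CDK4 and CDK6, rose by 3.36 ± 0.19, with levels of 5.22, 5.01 and 5.09 on the untreated and 8.30, 8.48 and 8.64 on the 100 nM arrays. The 2 groups of arrays lay far apart for REM2 and CDKN2B.

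Among the others, FICD, the enzyme that attaches AMP to the chaperone BiP, rose by 3.40 ± 0.35, and DNAJC30, a mitochondrial J-domain protein, by 3.34 ± 0.15. FOSB, an AP-1 subunit, rose by 3.35 ± 0.65 and is described with the immediate early genes. IDI2, a muscle isoform of isopentenyl diphosphate isomerase, was detected on no untreated array and rose at least 10.1-fold, and C9orf163 at least 9.43-fold. C9orf152 (3.79 ± 0.19) and LOC401261 (3.53 ± 0.24) have no role given here. All 12 were short, with a median span of 5.2 kb and none over 8.6 kb.

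H2BC21, a core histone H2B gene on chromosome 1, was also among the 12, and histone genes as a group stood high. H2BC21 had levels of 5.92, 4.83 and 4.94 on the untreated and 8.86, 9.16 and 9.08 on the 100 nM arrays, a rise of 3.80 ± 0.27 (adjusted p = 7.0e-12). Of 39 histone genes tested, 30 rose (76.9%) and 2 fell (5.13%) against 33.8% and 32.3% of all features, and their median change was 1.10, which kept its sign with the 75th percentile scaling (1.45) and with none (0.20). H2AC17 rose by 2.48 ± 0.24, H4C14 by 2.04 ± 0.27 and H2BC15 at least 3.96-fold from no detection. At 10 nM the list's median was 0.04. Most replication histone messages end in a stem-loop with no poly(A) tail, and the amplification kit primes on poly(A), so these values are of transcripts that carry a tail, and near-identical copies may share a probe's signal.

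The H2B promoters are shown because they hold the octamer ATTTGCAT, the site of the OCT1 activator that gives H2B genes their S phase transcription. The sequences are RefSeq's, 250 bases before to 50 after each start, build GRCh38.p14, in lower case with octamer matches on the printed strand or its complement in capitals.
H2BC21 (chr1:149886633-149886932, minus strand): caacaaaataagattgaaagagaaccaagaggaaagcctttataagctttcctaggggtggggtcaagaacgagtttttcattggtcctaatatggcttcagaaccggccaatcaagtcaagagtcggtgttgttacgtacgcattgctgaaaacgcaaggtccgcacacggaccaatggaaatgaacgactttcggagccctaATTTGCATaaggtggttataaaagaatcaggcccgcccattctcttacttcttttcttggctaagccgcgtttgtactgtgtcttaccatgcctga
H2BC17 (chr6:27893175-27893474, plus strand): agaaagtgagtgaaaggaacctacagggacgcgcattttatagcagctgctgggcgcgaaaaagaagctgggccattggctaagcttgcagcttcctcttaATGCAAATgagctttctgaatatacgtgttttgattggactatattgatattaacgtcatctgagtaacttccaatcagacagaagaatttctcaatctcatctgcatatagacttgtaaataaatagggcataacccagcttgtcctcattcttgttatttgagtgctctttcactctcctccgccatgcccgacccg
H2BC15 (chr6:27838319-27838618, plus strand): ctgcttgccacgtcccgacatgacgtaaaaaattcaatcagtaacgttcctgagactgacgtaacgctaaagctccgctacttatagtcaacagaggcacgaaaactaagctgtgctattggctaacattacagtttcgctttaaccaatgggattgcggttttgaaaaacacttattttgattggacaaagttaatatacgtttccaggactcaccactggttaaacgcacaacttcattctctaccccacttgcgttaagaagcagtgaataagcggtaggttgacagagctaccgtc
The octamer was found once each in 5 of the 7 tested H2B genes with a promoter, against 1.8% of all 27305 promoters. H2BC17 (0.93) and H2BC21 carry it and rose. H2BC15 has no match in this window and rose too, while H2BC12 has a match and was not called (0.43, adjusted p = 0.15). On the probes used, 4 of the 5 with a match rose, and 1 of the 2 without it. The other kept probes of H2BC12 and of H2BC5, which has no match, were called higher (1.15 and 1.36). The counts with and without the octamer therefore depend on the probe.

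Detection moved with level. Of the 11526 features, 1023 (8.88%) were detected on all 3 untreated and on no 100 nM array, against 95 (0.824%) for the same pattern at 10 nM, and 901 of the 1023 were called. The reverse, detected on no untreated and all 3 treated arrays, held for 66 (0.573%), all called. Both sets were picked by detection on the arrays compared, so these calls are no separate evidence of change. A gained feature may also have passed the filter only through its treated arrays. Of these 66, 41 were also undetected on all 10 nM arrays, and 33 had the same pattern in WT cells. TNF, the inflammatory cytokine, was among them, with levels of 4.58, 4.29 and 4.22 on the untreated and 7.17, 7.42 and 7.28 on the 100 nM arrays, at least 5.72-fold higher. SLC39A2, a zinc importer, rose at least 3.86-fold, and LGALS4, a galectin of gut epithelium, at least 1.96-fold. Genes chosen here after their values were seen include AHSP, the chaperone of alpha globin (at least 5.84-fold), DHX57, a helicase family member (at least 6.49-fold), and C8G, a complement component (at least 4.66-fold). The gained genes had a median span of 6.5 kb and the lost ones 78.6 kb. Among the 47 gained genes with a promoter, 12 (25.5%) held TATAAA on either strand, against 5.74% of the promoters of all tested features and 12% of all promoters, and the median GC content was 60.7% against 65.3% for all tested features and 58.3% for all promoters.

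Mitotic genes fell furthest of the lists examined. Of 40 genes of mitosis and G2/M tested, 1 rose (2.5%) and 29 fell (72.5%), against 33.8% and 32.3% of all features. The median change was -1.25, with the same sign under the 75th percentile scaling (-1.03) and with none (-2.28). TTK, the spindle checkpoint kinase, had levels of 9.47, 9.68 and 9.69 on the untreated and 6.10, 5.55 and 6.35 on the 100 nM arrays, a fall of 3.61 ± 0.42. CENPE, the kinetochore kinesin, fell by 2.65 ± 0.40, PLK1, the kinase that drives mitotic entry, by 1.77 ± 0.36, CDK1, the mitotic kinase, by 1.19 ± 0.36, and CCNB1, its cyclin B partner, by 1.18 ± 0.44. CCNB1 lost its call with slide as a random block (-0.91, adjusted p = 0.15) and without the second 100 nM (-1.14) or the second or the third untreated array (-1.05 and -0.93). At 10 nM none of the 40 was called and their median was 0.30, and 33 of the 40 were called lower at 100 nM than at 10 nM. The list's median span equalled that of all features, 28.2 kb.

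BIRC5, which encodes survivin, a subunit of the same mitotic machinery and an inhibitor of apoptosis, went the other way. Its levels were 6.94, 7.21 and 7.32 on the untreated and 9.23, 8.99 and 9.69 on the 100 nM arrays, a rise of 2.15 ± 0.36 (adjusted p = 1.2e-05) with no overlap. It rose by 2.80 in WT cells.

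**Figure D3:**
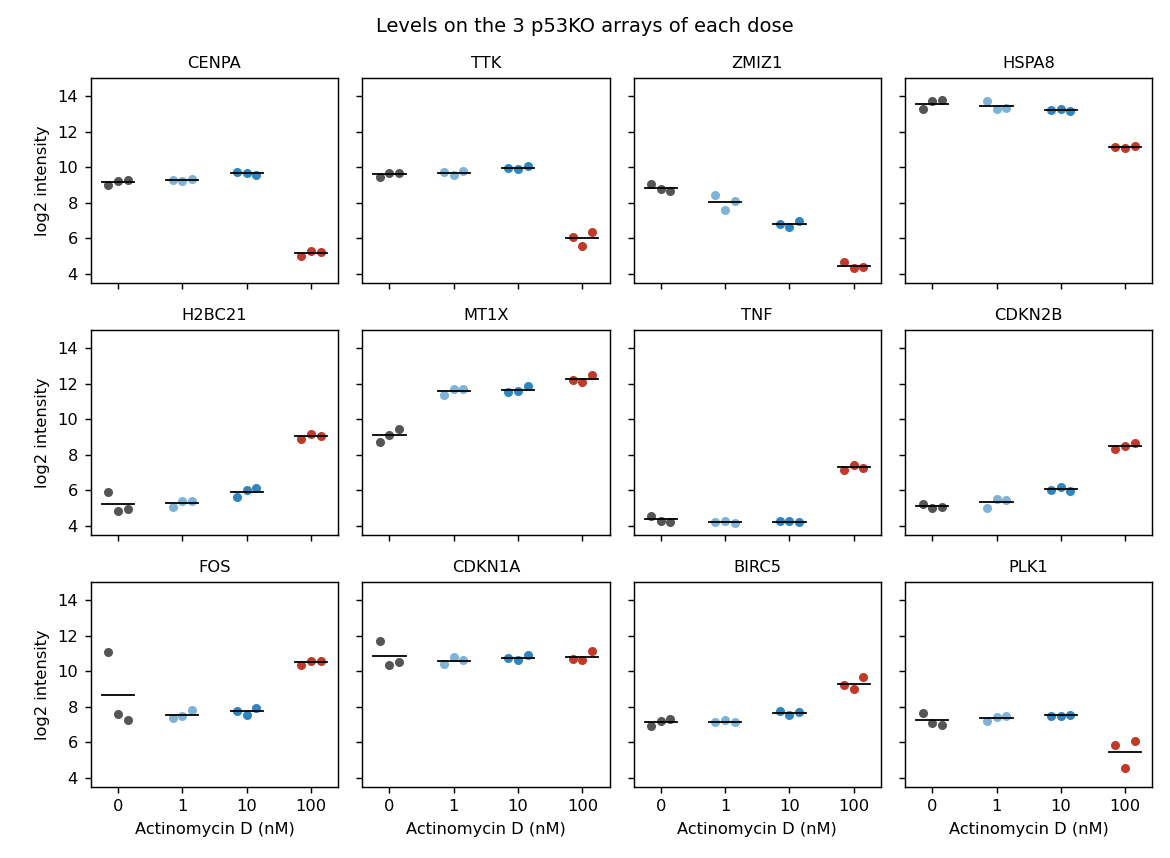
Log2 intensity of 12 genes on the 3 p53KO arrays at 0, 1, 10 and 100 nM actinomycin D, with 1 point per array and a black line at the mean. CENPA, TTK and PLK1 fell between 10 and 100 nM, the means of ZMIZ1 were lower at each higher dose, MT1X was already high at 1 nM, and 1 untreated array stands apart for FOS at 11.11.

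Replication and repair genes were called both ways, beside 33.8% higher and 32.3% lower of all features. Of 55 genes of DNA replication and S phase tested, 14 rose (25.5%) and 18 fell (32.7%), the share of falls being that of all features. CHAF1A, a histone chaperone of the replication fork, fell by 2.37 ± 0.32, ORC5, of the origin recognition complex, by 2.33 ± 0.15, DTL, an adaptor that targets proteins for destruction in S phase, fell by 2.05 ± 0.37, and RFC1, of the clamp loader, by 1.86 ± 0.18. Of 33 genes of homologous recombination and the checkpoint tested, 3 rose (9.09%) and 15 fell (45.5%), with a median of -0.47 that stayed below 0 under both other scalings. TOPBP1, an activator of the ATR kinase, fell by 2.38 ± 0.30, BLM, a helicase, by 1.94 ± 0.34, RAD54B, a recombination motor, by 1.87 ± 0.30, and BRCA1, the repair scaffold, at least 4.27-fold while its other probe was at 0.26. Of 42 cyclins and CDKs tested, 12 rose (28.6%) and 16 fell (38.1%), near the shares of all features. CCNF fell by 3.33 ± 0.39, CDK7, of the CDK-activating kinase and TFIIH, fell by 2.91 ± 0.19, and CDK8, of the Mediator kinase module, at least 2.99-fold, beside the rise of CDKN2B.

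The p53 targets were called both ways in these cells without p53, where 33.8% of all features rose and 32.3% fell. Of 16 p53 targets of arrest and feedback tested, 3 rose (18.8%) and 4 fell (25%). Of 20 p53 targets of apoptosis, 6 rose (30%) and 5 fell (25%), and of 18 of repair and metabolism, 5 rose (27.8%) and 7 fell (38.9%). Each share of rises was below that of all features, and the shares of falls lay on both sides of theirs. CDKN1A, the p21 inhibitor of cell cycle kinases, had levels of 11.69, 10.36 and 10.53 on the untreated and 10.69, 10.62 and 11.13 on the 100 nM arrays, a difference of -0.05 ± 0.71 (adjusted p = 0.95) with overlapping groups. MDM2, the ligase that degrades p53, was detected on 1 untreated and no treated array, and FAS, a death receptor, on none of the 6. GDF15, a secreted stress cytokine, differed by -1.01 ± 0.76 (adjusted p = 0.25). The SE of these genes is pooled over all 30 arrays. Without the 4 arrays named above the differences were 0.37 for CDKN1A and -0.61 for GDF15 (adjusted p = 0.14 and 0.086), and MDM2 had an adjusted p of 0.86.

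Some listed targets were called all the same. PLK2, a kinase of centriole duplication, rose by 1.69 ± 0.19, PMAIP1, the BH3-only protein NOXA, by 1.85 ± 0.27, FUCA1, a lysosomal fucosidase, by 1.84 ± 0.27, ISCU, the scaffold of iron-sulfur cluster assembly, by 1.40 ± 0.22, and BAX, the pore-forming death effector, by 0.85 ± 0.21. BAX was -0.39 with no scaling. KITLG, the ligand of the KIT receptor, had levels of 9.52, 10.52 and 10.50 on the untreated and 6.85, 6.48 and 6.63 on the 100 nM arrays. That was a fall of 3.53 ± 0.32, with -1.95 on its other probe. APAF1, the core of the apoptosome, fell by 1.92 ± 0.26, and PPM1D, a phosphatase that switches off p53 signalling, fell by 1.58 ± 0.42. TNFRSF10B, the TRAIL receptor DR5, fell by 1.33 ± 0.31 (-0.82 on its other probe). SESN1, a stress-induced regulator of mTORC1, fell at least 1.57-fold and PHLDA3, an inhibitor of AKT, at least 1.96-fold, and neither fall was called with the 75th percentile scaling, nor that of PHLDA3 without the first 100 nM array (adjusted p = 0.067). The 2 probes for FBXW7, a substrate receptor of ubiquitin ligases, beside the one used here (a fall of 1.00 ± 0.17) gave 0.25 and -1.68.

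Immediate early genes, which growth signals switch on within minutes without new protein, stood high, and higher without the first untreated array. Of 24 immediate early genes tested, 15 rose (62.5%) and 4 fell (16.7%), against 33.8% and 32.3% of all features, with a median of 1.06. Without the first untreated array it was 17 and 3, with a median of 1.46, and with no scaling the median was at 0.00 against -0.69 for all features. FOS, an AP-1 subunit, had levels of 11.11, 7.57 and 7.29 on the untreated and 10.37, 10.56 and 10.58 on the 100 nM arrays. The groups overlapped through that 1 array, and the change was 1.85 ± 0.70 (adjusted p = 0.023) with it, 3.08 (adjusted p = 5.3e-05) without it and 1.10 (adjusted p = 0.29) with slide as a random block. The call was also lost without the second or the third 100 nM array (1.82 and 1.81) or untreated array (1.30 and 1.16).

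Other members shared that pattern of the first array. FOSB had levels of 9.36, 5.46 and 5.30 on the untreated and 9.77, 10.60 and 9.80 on the 100 nM arrays and rose by 3.35 ± 0.65, or 4.67 without the first untreated array. CCN2, a matricellular growth factor, had 10.29, 7.14 and 6.73 on the untreated and 11.16, 11.06 and 11.32 on the 100 nM arrays and rose by 3.13 ± 0.70, or 4.25. NR4A2, an orphan nuclear receptor, rose by 1.86 ± 0.44 (2.55 without it), JUN, the partner of FOS, by 0.97 ± 0.24 (1.46 without it and -0.05 with no scaling), and IER5, a regulator of heat shock factor, by 2.00 ± 0.21 (2.15 without it). IER5 moved least between the 2 fits.

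The genes that restrain MAPK signalling, many of them induced by the same growth signals, were called both ways, with slightly more falls. Of 14 MAPK feedback genes tested, 4 rose (28.6%) and 6 fell (42.9%), against 33.8% and 32.3% of all features, on small counts. Their median of -0.64 stayed below 0 under both other scalings and was at -0.31 without the first untreated array (2 higher and 6 lower). SPRED1, an inhibitor of RAS signalling, had levels of 9.55, 9.81 and 9.78 on the untreated and 6.87, 6.06 and 6.10 on the 100 nM arrays, and fell by 3.37 ± 0.21. Its relative SPRED2 fell by 3.17 ± 0.18, PHLDA1, a pleckstrin homology-like protein, by 2.74 ± 0.18, and ERRFI1, a feedback inhibitor of EGFR, by 2.41 ± 0.20. Of the NF-kB and inflammatory genes, 2 of 19 rose (10.5%) and 4 fell (21.1%), and the sign of their median turned without the first untreated array (-0.22 with it, 0.30 without). NFKB1, which encodes the p50 subunit, fell by 1.61 ± 0.22, NFKBIE, an inhibitor of NF-kB, by 1.77 ± 0.22, and TNIP1, another inhibitor of the pathway, fell by 1.28 ± 0.26, beside the rise of TNF.

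Regulators of cell death and of MYC changed member by member. Of 18 BCL2 family genes tested, 4 rose (22.2%) and 6 fell (33.3%), against 33.8% and 32.3% of all features. BCL2L1, the survival protein BCL-XL, fell by 1.83 ± 0.17 (-1.85 on its other probe) and BCL2L13 by 1.19 ± 0.15. BOK, a BAX relative, fell by 1.15 ± 0.27, a call lost with slide as a random block. MCL1, a short-lived survival protein, differed by -0.56 ± 0.26 (adjusted p = 0.063) on 1 probe and by 1.12 on another. Of the 6 genes tested in the IAP list, which holds IAP antagonists as well, BIRC5 rose (16.7%) and 3 fell (50%). BIRC6, a giant ubiquitin ligase, fell at least 2.86-fold. DIABLO, the IAP antagonist SMAC, fell by 0.85 ± 0.16 (-0.11 on its other probe), and HTRA2, a mitochondrial protease, by 0.51 ± 0.15. MYC, the growth transcription factor, fell by 0.65 ± 0.21 (adjusted p = 0.0076), with levels of 11.10, 11.16 and 11.05 on the untreated and 10.37, 10.24 and 10.74 on the 100 nM arrays. That call was lost with slide as a random block (adjusted p = 0.076), and the difference was 0.02 with the 75th percentile scaling. MXD1 and MXD3, which compete with MYC for its partner MAX, rose by 2.54 ± 0.32 and 1.37 ± 0.30, and MYCBP2, a very long gene for a ubiquitin ligase, fell at least 4.53-fold. MAX itself fell at least 1.42-fold on 1 probe while 2 others gave -0.63 and 0.84.

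Genes of the transcription and RNA machinery held members called both ways. Of 95 genes of RNA polymerase II, Mediator, TFIID and elongation tested, 25 rose (26.3%) and 38 fell (40%), of 86 splicing factors, 22 rose (25.6%) and 30 fell (34.9%), and of 57 genes of mRNA decay and deadenylation, 9 rose (15.8%) and 25 fell (43.9%), against 33.8% and 32.3% of all features. The splicing factors lay near the share of all features called lower. With the 75th percentile scaling the first list had 42 higher and 28 lower, the splicing factors 44 and 13, and the decay list 19 and 20. MED4, a Mediator subunit, had levels of 8.77, 9.01 and 8.93 on the untreated and 6.13, 6.12 and 6.12 on the 100 nM arrays, a fall of 2.78 ± 0.20. RBM25 and RBM5, both splicing regulators, fell by 3.27 ± 0.25 and 2.56 ± 0.14, and SNRPA1, of the U2 particle, by 1.42 ± 0.17, while SNRPE, a core Sm protein, rose by 1.72 ± 0.17. EXOSC3, a subunit of the RNA exosome, had levels of 10.59, 11.21 and 11.13 on the untreated and 8.30, 7.78 and 7.87 on the 100 nM arrays, a fall of 2.99 ± 0.19 (-2.59 on its other probe). DIS3, the nuclease of the same exosome, rose by 2.36 ± 0.14, with levels of 5.75, 5.53 and 5.19 on the untreated and 7.87, 7.90 and 7.77 on the 100 nM arrays. CNOT2, of the deadenylase complex, fell by 2.92 ± 0.22 and PUM2, which recruits it to target messages, by 2.57 ± 0.16. With the 75th percentile scaling the median of the decay list was 0.02 in place of -0.36, still below the 0.56 of all features.

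The machinery that makes ribosomes fell as a group. Of 52 genes of RNA polymerase I and ribosome biogenesis tested, 10 rose (19.2%) and 29 fell (55.8%), against 33.8% and 32.3% of all features. Their median of -0.56 stayed below 0 under both other scalings. DDX10, a helicase of the small subunit, fell by 2.51 ± 0.19, NOC3L, of the large subunit, by 2.30 ± 0.13, and UTP15, of the early processome, at least 2.9-fold. POLR1D, a subunit of RNA polymerases I and III, fell by 2.10 ± 0.15 on the probe used and was at 0.92 on the other. At 10 nM the list's median was 0.27, with 12 members higher and 2 lower, and 31 of the 52 were called lower at 100 nM than at 10 nM.

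The ribosomal proteins, among the most abundant messages of any cell, had counts that depend on the scaling. Of 61 cytosolic ribosomal proteins tested, 12 rose (19.7%) and 4 fell (6.56%), while with the 75th percentile scaling 58 were higher and 2 lower, and with none 6 and 4. Their median was 0.03 here, 1.45 with the 75th percentile scaling and 0.20 with none, and its side of the median of all features changed with the scaling. RPL37 rose by 2.09 ± 0.12, RPL32 by 1.95 ± 0.18 and RPL41 by 1.59 ± 0.14, and RPS26 fell by 2.17 ± 0.37 (-1.61 without the first untreated array). Probes of this family can also read processed pseudogenes. Of 64 translation factors tested, 14 rose (21.9%) and 18 fell (28.1%), against 33.8% and 32.3% of all features. Their median changed sides as well. EEF1AKMT3, which methylates an elongation factor, rose by 2.64 ± 0.13. EIF4ENIF1, which carries the cap-binding protein to the nucleus, fell by 1.88 ± 0.24, EIF5B, of subunit joining, by 1.81 ± 0.22, and DENR, of reinitiation, by 1.72 ± 0.21.

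Messages of the respiratory chain rose more often than those of all features. These genes are short, with a median span of 9.9 kb. Of all genes of 0.13 to 8.8 kb, 56.2% rose, and of those of 8.85 to 20.1 kb, 42.9%. Whether the list differs from genes of like span was not tested. Of 71 respiratory chain subunits tested, 42 rose (59.2%) and 5 fell (7.04%), with a median of 0.32 that stayed above 0 under both other scalings. ATP5MK, an accessory subunit of ATP synthase, had levels of 7.64, 7.85 and 7.53 on the untreated and 9.83, 9.22 and 9.73 on the 100 nM arrays, a rise of 1.92 ± 0.18. CYCS, cytochrome c, rose by 1.73 ± 0.17 and NDUFA7, of complex I, by 1.30 ± 0.21, while NDUFV3, also of complex I, fell by 1.89 ± 0.24. Of 77 mitochondrial ribosomal proteins tested, 22 rose (28.6%) and 23 fell (29.9%), near the 33.8% and 32.3% of all features. MRPL57 (1.89 ± 0.19) and MRPL52 (1.68 ± 0.17) were up and MRPS30 (-1.88 ± 0.15) and MRPS31 (-1.74 ± 0.19) down. Of 43 proteasome subunits tested, 12 rose (27.9%) and 13 fell (30.2%), also near those shares, with a median of 0.20. The members named by size of change all fell, while the highest change in the list was 0.90. The lid protease PSMD14 fell by 1.51 ± 0.19 and the base ATPase PSMC6 by 1.45 ± 0.22. The assembly chaperone PSMG2 fell by 1.92 ± 0.13 and the inhibitor PSMF1 by 1.35 ± 0.14.

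Protein folding genes were called both ways. Of 35 genes of endoplasmic reticulum stress and folding tested, 20 rose (57.1%) and 9 fell (25.7%), against 33.8% and 32.3% of all features, with a median of 0.45 that was -0.40 with no scaling, above the -0.69 of all features. ERN1, the stress sensor IRE1, rose by 1.87 ± 0.22 (0.22 on its other probe), HYOU1, a chaperone of the compartment, by 1.24 ± 0.15 and CRELD1, a membrane protein with EGF-like repeats, by 1.22 ± 0.18, and CREB3L2, a membrane-bound transcription factor, fell by 1.36 ± 0.16. Of 42 cytosolic and mitochondrial chaperones tested, 10 rose (23.8%) and 15 fell (35.7%), near the shares of all features, with a median of 0.01. The difference between these lists was not tested. HSPA8, the constitutive HSP70, had levels of 13.26, 13.72 and 13.77 on the untreated and 11.16, 11.08 and 11.19 on the 100 nM arrays, and fell by 2.44 ± 0.15 (adjusted p = 4.8e-13), as its other probe also gave (-2.48). Its cochaperones DNAJA2 and DNAJB1 fell by 2.39 ± 0.14 and 1.51 ± 0.23, and CCT5, of the ring chaperonin, rose by 1.64 ± 0.18.

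Nutrient, lipid and glycolytic genes were also called both ways. Of 44 ATF4, amino acid and tRNA synthetase genes tested, 8 rose (18.2%) and 17 fell (38.6%), the lower share being near the 32.3% of all features. SLC7A1, the arginine transporter, fell by 2.88 ± 0.22, RARS1, the arginyl-tRNA synthetase, by 1.31 ± 0.13 and CHAC1, which degrades glutathione, at least 1.1-fold, while ATF5, a transcription factor of the same stress response, rose by 1.30 ± 0.26. Of 29 genes of cholesterol and fatty acid synthesis tested, 6 rose (20.7%) and 11 fell (37.9%), again near that share of lower calls. The members furthest down were HMGCS1, which makes the precursor of mevalonate (-2.02 ± 0.22), INSIG2 and INSIG1, which hold back the sterol sensor (-1.83 ± 0.26 and -1.60 ± 0.33), and ELOVL6, a fatty acid elongase (-1.72 ± 0.22). Both medians, -0.27 and -0.34, turned above 0 with the 75th percentile scaling, below the 0.56 of all features. Of 26 genes of glycolysis and the pentose phosphate path tested, 13 rose (50%) and 6 fell (23.1%), against 33.8% and 32.3% of all features. Their median of 0.39 stayed above 0 under both other scalings. PFKL and PKM, enzymes of irreversible steps of glycolysis, rose by 1.43 ± 0.21 and 1.43 ± 0.30, though 1 treated array of PKM stood at 11.10 and the others at 9.47 and 9.42, and without it the change was 0.88. HK2, the first enzyme of the path, fell by 1.49 ± 0.27 and PFKFB4, which sets its flux, by 1.77 ± 0.25. Of the 2 common reference genes, GAPDH rose by 0.42 ± 0.10 and ACTB differed by 0.06 ± 0.16 (adjusted p = 0.78).

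Metallothioneins, small cysteine-rich proteins that bind zinc and copper, rose together. Of 8 metallothioneins tested, 8 rose (100%) and 0 fell (0%), against 33.8% and 32.3% of all features. Their median was 1.81, above 0 under both other scalings. MT1X had levels of 8.71, 9.11 and 9.45 on the untreated and 12.19, 12.08 and 12.47 on the 100 nM arrays, a rise of 3.16 ± 0.19 (adjusted p = 7.2e-13). MT1G rose by 2.33 ± 0.30, MT1F by 2.26 ± 0.34 and the pseudogene MT1P3 by 2.30 ± 0.22. Members of this family are close in sequence, so probes may share signal. Set beside this, the list's median was 1.39 at 10 nM with 6 members called higher, and 1.38 at 1 nM with 4. The promoter of MT1X is printed for its metal response elements, the sites of the zinc sensor MTF1, with matches to the core TGCNCNC on either strand in capitals (RefSeq, GRCh38.p14).
MT1X (chr16:56682220-56682519, plus strand): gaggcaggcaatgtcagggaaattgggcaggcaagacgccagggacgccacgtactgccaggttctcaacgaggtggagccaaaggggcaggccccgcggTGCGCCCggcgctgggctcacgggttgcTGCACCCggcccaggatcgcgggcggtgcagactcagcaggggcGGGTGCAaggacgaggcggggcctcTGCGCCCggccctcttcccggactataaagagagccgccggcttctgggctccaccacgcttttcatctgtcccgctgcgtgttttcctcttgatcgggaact
It held 4 such matches, and 3 of the 8 tested members had a promoter sequence, with 5 matches for MT1B and 8 for MT2A, while 4 or more were found in 2.78% of all promoters. The core is short, and 55.2% of all promoters held at least 1.

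Zinc transporters were called both ways. Of 19 zinc transporters tested, 10 rose (52.6%) and 5 fell (26.3%), against 33.8% and 32.3% of all features, with a median of 0.62. SLC30A1, the exporter that MTF1 is known to induce, rose by 1.86 ± 0.22, with a change of 2.13 at 10 nM, and SLC39A10, an importer, fell by 1.40 ± 0.22, with -1.37 at 10 nM. SLC30A6, a Golgi transporter, fell at least 1.53-fold. Of 32 genes of the interferon response and antigen presentation tested, 14 rose (43.8%) and 2 fell (6.25%), with a median of 0.58, or -0.15 with no scaling against -0.69 for all features. IRF7, the transcription factor that amplifies the interferon response, rose by 2.01 ± 0.27 (0.86 on its other probe), HLA-C and HLA-B, which present peptides, by 1.5 ± 0.17 and 1.33 ± 0.23, and TAP2, which pumps peptides to them, by 1.35 ± 0.19. HLA probes can read related genes and depend on the allele.

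Lineage genes were checked as well. Colon epithelial markers, 11 of 20 tested, had a summed log2 level of 97.16 to 98.87 on the untreated and 97.38 to 99.11 on the treated arrays. KRT19, a keratin, fell by 1.10 ± 0.19 (0.14 with the 75th percentile scaling) and CDX2, the gut transcription factor, by 0.99 ± 0.21, while CDH1, E-cadherin, rose by 0.67 ± 0.19, a call lost with slide as a random block. Markers of other cell types passed the detection filter for only 5 of 24. Any 1 group can pass a probe, the treated one included. All 3 untreated arrays detected 4 of the 5, and all 3 arrays at 100 nM detected 5. Of the 5, 4 rose, against 33.8% of all features: COL1A1 of fibroblasts (0.98 ± 0.17), CD68 and CD14 of macrophages (1.55 ± 0.21 and 2.09 ± 0.20) and HBA1 of red cells (2.61 ± 0.33). Their summed level went from 29.4 to 30.48 on the untreated to 37.24 to 38.54 on the treated arrays, and the other 19 did not pass the filter, in a culture of a single line. Their part in other results was not tested. Of 22 Wnt targets and receptors tested, 5 rose (22.7%) and 8 fell (36.4%), the share of falls being near the 32.3% of all features. TCF7L2, the effector of the pathway, fell at least 7.42-fold, and DKK1, a secreted inhibitor, fell by 2.92 ± 0.23. RNF43, a feedback ligase, fell by 1.45 ± 0.18, while FZD7, a receptor, rose by 1.14 ± 0.18. Host transcripts of small RNAs included SNHG11 (2.52 ± 0.14), SNHG4 (1.00 ± 0.16) and TMEM107 (1.44 ± 0.23), all higher, and EPB41L4A-AS1 (-0.97 ± 0.33), whose fall was not called without the first untreated (-0.51) or the second 100 nM array (-0.86). Of 287 ZNF zinc finger genes tested, 89 rose (31%) and 99 fell (34.5%), near the shares of all features, and 51 of the 287 lost detection. ZNF518A fell at least 5.1-fold, ZNF827 at least 3.95-fold, ZNF165 fell by 2.98 ± 0.36 and ZNF800 by 2.74 ± 0.24.

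**Figure D4:**
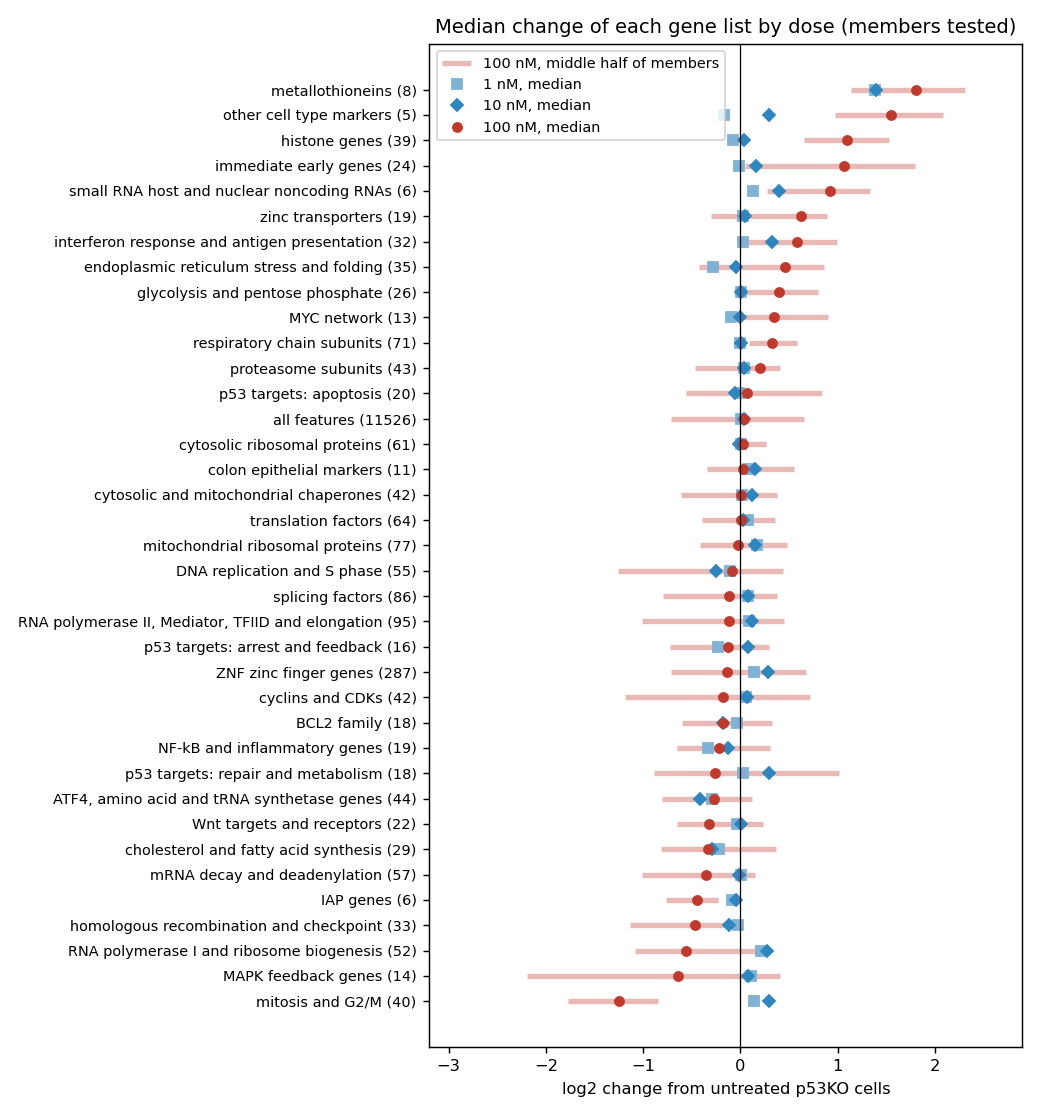
Median log2 change from untreated p53KO cells of each gene list at 1 nM (light squares), 10 nM (diamonds) and 100 nM (red points), with the range of the middle 50% of members at 100 nM as a bar and the number of members tested in brackets. Mitotic genes lie lowest at -1.25 and metallothioneins highest at 1.81, and most lists lie near 0 at 1 and 10 nM.

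Change ran with gene length. For 10878 features with a RefSeq span (94.4%), split by span into 5 groups of near equal size, the median change was 0.55 in the shortest (0.13 to 8.8 kb) and then 0.27, 0.02, -0.32 and -0.59 in the longest (84.56 to 2304.2 kb). Of the shortest group, 56.2% rose and 11.9% fell, and of the longest 17.6% rose and 53.9% fell. Detection was lost in 2.39% of the shortest and 20.7% of the longest. The difference between the medians of the shortest and longest groups was 0.99, 1.14 and 1.27 on the 3 arrays at 100 nM, 0.49, 0.56 and 0.49 at 10 nM, and 0.03, 0.28 and 0.07 at 1 nM. It was -0.008 to 0.0124 on the untreated arrays, each against their own mean. The order of the 5 groups was the same among genes of low, middle and high untreated level. Over the settings tried the difference at 100 nM ran from 0.698 to 1.22, while the sign of the shortest group turned with no scaling (-0.15). WT cells at 100 nM had medians of 0.52 and -0.57 in the outer groups. Genes are not independent replicates, and no test was made over them.

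**Figure D5:**
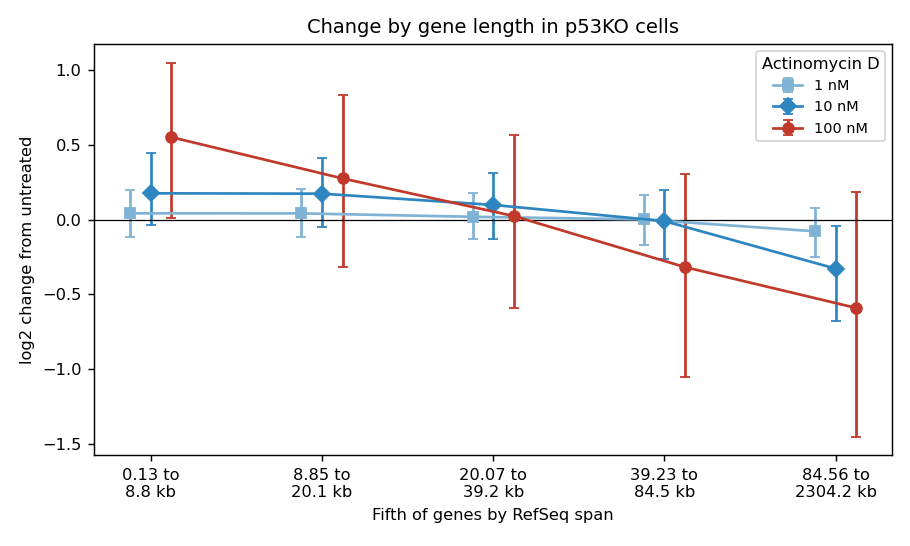
Median log2 change from untreated p53KO cells in 5 groups of genes by RefSeq span, at 1, 10 and 100 nM actinomycin D. Error bars cover the middle 50% of genes in a group, and at 100 nM the medians run from 0.55 in the shortest to -0.59 in the longest.

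The step from 10 to 100 nM changed about as many features as the full dose did. Directly compared, 7472 features differed (64.8%), 3722 higher and 3750 lower at 100 nM. The p53KO arrays at 10 nM all lay on slide 5 and those at 100 nM on slide 1. Only WT arrays of these doses link the 2 slides, and with slide as a fixed block 6938 features were called. The 5 with the lowest fitted difference were TTK (-3.98 ± 0.42), PLEKHG3 (-3.82 ± 0.16, detected on 2 of the 3 arrays at 100 nM) and, detected on none at 100 nM, CENPA (at least 19.9-fold lower), KIF2A (at least 7.74-fold) and COMMD2, of the COMMD trafficking family (at least 9.06-fold). The 5 with the highest were C1orf162 (4.43 ± 0.30), FOSB (3.93 ± 0.65) and, detected on none at 10 nM, C9orf152 (at least 13.1-fold higher), IDI2 (at least 10.3-fold) and C9orf163 (at least 9.55-fold). Against untreated cells 10 nM gave 2491 calls (21.6%), of which 1204 were higher (10.4%) and 1287 lower (11.2%), with 133 (1.15%) and 425 (3.69%) at least 2-fold. At 1 nM 93 were called (0.807%). These comparisons share the untreated arrays, so their values are only set side by side: KITLG was at -0.68, -2.01 and -3.53 at 1, 10 and 100 nM, ZMIZ1 at -0.79 and -2.03 and then at least 11.3-fold lower, and CENPA at 0.13 and 0.49 and then at least 14.2-fold lower. ZMIZ1 and KITLG had moved at 10 nM and CENPA had not been called. The KITLG values are of the probe used, and its other probe gave -1.95 at 100 nM.

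The same dose in WT cells gave 7578 calls (65.7%), on other arrays that mostly shared slides with the p53KO arrays. Of the calls, 6663 were shared with the same direction, 87.5% of those in p53KO and 87.9% of those in WT cells, and 8 had opposite directions. Across the 11526 features the 2 sets of changes had a Pearson r of 0.96 and a Spearman correlation of 0.95, as a description over genes. They differed by less than 0.5 in 90.8% of features. The untreated arrays of both genotypes lay on slides 2 and 4. WT arrays 1 and 3 at 100 nM lay on slide 1 with all p53KO arrays of that dose, and WT array 2 on slide 5. The 2 sets of changes are therefore not independent replicates, and the part of slide in their likeness was not tested. The change in WT minus the change in p53KO cells was called in 27 features (0.234%), 21 higher (0.182%) and 6 lower (0.0521%), with 18 (0.156%) and 3 (0.026%) at least 2-fold, and 632 had an unadjusted p under 0.05. Fitted on the 4 groups compared alone, 10 were called without a block and 16, 10 higher and 6 lower, with the replicate number as a block within each treatment. Without the first WT array at 100 nM it was 50, the highest count with 1 array left out.

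TCERG1L, a relative of a transcription elongation regulator, was among them (adjusted p = 5.8e-17). Its levels in p53KO cells were 4.16, 4.13 and 4.16 on the untreated and 4.11, 4.17 and 4.16 on the 100 nM arrays, not detected on any, and in WT cells 4.65, 4.34 and 4.27 untreated and 8.67, 8.65 and 8.51 at 100 nM, detected only on the 3 treated arrays, a rise of at least 14.5-fold. SNAI2, the repressor SLUG and a known p53 target, was another (adjusted p = 1.2e-06), with 5.12, 4.32 and 4.25 on the untreated and 4.54, 4.91 and 4.73 on the 100 nM arrays in p53KO cells, detected on 1 untreated array, and 4.56, 4.22 and 4.34 untreated and 7.29, 7.47 and 7.54 at 100 nM in WT cells, a rise of at least 6.42-fold there. Neither was called in p53KO cells.

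FBXW7 differed by 2.26 ± 0.24 on the probe used, AKAP19, of the family that anchors protein kinase A, by 2.09 ± 0.37, and SUFU, an inhibitor of Hedgehog signalling, by 1.73 ± 0.31. Changes lower in WT cells were those of FZD4, a WNT receptor (adjusted p = 0.0043), ARMC12, an armadillo repeat protein (adjusted p = 0.020), H2BC15 (adjusted p = 0.026), FAM184A (adjusted p = 0.0059) and the noncoding PRDM10-DT (adjusted p = 0.0015). For each of these 5 at least 1 of the 4 groups was detected on no array, so no size is given here for the difference. FZD4 fell at least 2.71-fold in WT cells. The calls of H2BC15 and ARMC12 were lost when single arrays were left out: H2BC15 without the first or second 100 nM or the third untreated p53KO array, the second or the third untreated WT or the third 100 nM WT array, and ARMC12 without the third 100 nM or first untreated p53KO array, or the first untreated or second 100 nM WT array. In p53KO cells ARMC12 rose at least 1.98-fold and PRDM10-DT at least 3.23-fold. In WT cells TNF rose at least 5.17-fold, CENPA fell at least 11.7-fold, and MT1X and H2BC21 rose by 3.29 and 3.94.

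Probes of a gene did not always run together. In 1144 genes another kept probe gave 1370 pairs, of which 621 had both probes called, 516 in the same direction and 105 in opposite ones. A change named here is that of the brightest kept probe, which may read 1 of several transcripts of the gene.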

How the data were processed

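Members and gene lists were chosen with earlier results of these data known. Total RNA extracted with Trizol was amplified and labelled with an Illumina TotalPrep kit, per the labels. The authors deposited, from BeadStudio per the submitters' processing notes (no version named), for each of 22177 probes an unnormalised intensity with its detection p-value, and a processed intensity in a second table with the same median, 10.195, on every array. The series matrix repeats it. No source used here states its normalisation, so only the raw table entered the fit. Its columns for 26 other arrays were not used. Symbols came from GEO's platform annotation, updated by gene ID for 20986 probes (21101 had 1 symbol, 1076 none).

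Raw intensities were background-corrected, quantile-normalised and put on a log2 scale with neqc in limma 3.58.1 (R 4.3.3, offset 16, with the negative-control spread derived from those p-values). A probe was kept when every array of some group had it below a detection p of 0.01 (12896), and the one with the highest mean stood for its gene (11526 features, 10919 with a symbol). One linear model with a mean per group was fitted to all 30 arrays (lmFit and eBayes, 20 residual degrees of freedom), and p-values were Benjamini-Hochberg adjusted over all features. The number of arrays limits the precision. On simulated data this fit recovered 80% of changes of 1 and 99% of changes of 2 on the log2 scale in the main comparison. The simulation changed 200 genes in normalised values, with independent noise and no slide or scaling effect. In the data 66.1% of features were called, so these rates do not describe recovery there. Named genes were the 12 highest and 12 lowest called with no overlap between groups, up to 4 called genes per list by size, the 5 largest differences each way from 10 nM and from WT cells, and fixed genes of the p53 pathway, cell cycle and stress. TXNIP was not among the tested features.

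Same-numbered arrays of p53KO and WT cells deviated together (correlations of 0.23 to 0.47 at 100 nM and 0.60 to 0.78 untreated). So did those at 100 and 10 nM in p53KO cells (0.19 to 0.31), but not those at 100 nM and untreated (-0.08 to 0.01). Replicate numbers were therefore taken to pair all but the last. Untreated arrays 2 and 3 of the 2 genotypes, all on slide 4, also correlated across numbers (0.49). The part of slide in the untreated correlations was not tested. Alternatives changed the normalisation, filter, arrays and blocks 1 at a time, except that the replicate block was fitted on the groups compared alone. Promoters and gene spans are RefSeq's (GRCh38.p14). Python 3.11.15 with pandas 2.3.3 and SciPy 1.17.1 made the summaries.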

Additional observations from a re-analysis of the deposited data

Results flagged for a closer look

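A set of 10 genes is listed here because the change at 100 nM differed between WT and p53KO cells by limma's interaction test (Benjamini-Hochberg over 11526 features), as log2 differences, change in WT minus change in p53KO cells. The genes with the larger rise or smaller fall in WT cells were TCERG1L (4.19), SNAI2 (2.89), FBXW7 (2.26), AKAP19 (2.09) and SUFU (1.73). Those with the smaller rise or larger fall in WT cells were FZD4 (-1.33), ARMC12 (-1.22), H2BC15 (-1.01), FAM184A (-0.99) and PRDM10-DT (-0.94). TCERG1L, SNAI2 and FBXW7 were called in each alternative run in which their probe was kept, and the other 7 were not called in some. For TCERG1L, SNAI2, FZD4, ARMC12, H2BC15, FAM184A and PRDM10-DT at least 1 of the 4 groups was detected on no array, so these fitted values are not measured sizes and have no order.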

How the results depend on the processing

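The count of features changed at 100 nM stayed within 1.5 times of 7617 in each alternative run, from 5629 of 8297 features detected on all 6 arrays to 8609 with the 75th percentile scaling, and from 7096 to 7314 with 1 array left out. The comparison with 10 nM ran from 5561 to 8527 around 7472, and from 6866 to 7187 with 1 array left out. Fitted on the groups compared alone these counts were 6956 and 8128, and 6680 and 8391 with the replicate number as a block in that fit. For the difference between genotypes, 27 in the fit reported, the count was 6 with the 75th percentile scaling, 5 with no scaling, 115 in the authors' processed values, 48 with no filter, 3 for probes detected on all arrays compared, 10 with only the groups compared, and in that fit 10 with the replicate block and 16 with that block within treatments (added after seeing the data), 88 without the 4 arrays that stood apart, 53 and 104 with slide as a random and a fixed block, and 21 to 50 with 1 array left out. The ratio of raw 75th percentiles was 0.467 to 0.528 and that of detected probes 0.832 to 0.844 with 1 array left out, where 0.2 is the smallest p possible, and 0.904 at a detection p under 0.05. Of 182 named genes, 172 were called. With the 75th percentile scaling the sign turned for CHAC1 (0.0603), KRT19 (0.14) and MYC (0.0196), and the uncalled FAM184A (1.16), FAS (0.96) and TCERG1L (1.23) were called higher. With no scaling it turned for BAX (-0.39), CDH1 (-0.19), COL1A1 (-0.0593), FZD7 (-0.0137), JUN (-0.0531) and SNHG4 (-0.25). MAX gave 0.84 on the probe detected on all 6 arrays. The causes were not tested. Levels near background bound what can be seen of a fall.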
